A study of Danio rerio with 24 samples.

Results

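Red blood cell genes were followed through fin regeneration in zebrafish (Danio rerio): the embryonic haemoglobin chains hbbe2, hbbe3 and hbae3, the red cell anion exchanger slc4a1a, and cytoglobin, cygb1. These 5 genes were selected on their measured values in these arrays, and every probe set annotated to one of them alone was kept, which gave 7 of the 15502 probe sets tested. They are 5 of the 8793 genes that had a probe set of their own symbol. Genes hbae3 and cygb1 had 2 probe sets each and the others had 1. Because the values chose the genes, their levels and differences are given as a description, with no test.

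Caudal fins of the AB strain were measured on 24 Affymetrix zebrafish arrays, in 8 groups of 3 arrays. Larvae gave 4 groups, intact fin (unamputated, 2 days post fertilization) and regenerates of 1, 2 or 3 dpa (days post amputation), each array from a pool of 150 fins. Adult males gave the other 4, intact fin and regenerates of 1, 3 or 5 dpa, with 10 fish pooled for each array. Larvae of the 2 and 3 dpa groups had been kept for 1 h in the vehicle DMSO, and the adults with regenerating fins had received liposomes as a vehicle by injection; for the remaining groups the labels name no vehicle. Larval RNA (100 ng) went through a two-cycle labelling kit and adult RNA (2.5 µg) through a one-cycle kit, so that age, kit and RNA input cannot be told apart, and in larvae a later day after amputation was also an older fish. All groups were wild-type fish as far as the labels say. Nothing in the labels says that the pools of a group came from separate crosses or tanks, so errors and p-values cover the spread between these pools alone. In 2 places the labels disagree with themselves: a description of the adult unamputated arrays gives days after amputation, and the source names of the larval unamputated and 1 dpa arrays all say replicate 1. The titles were followed.

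Haemoglobin is built from alpha-type and beta-type globin chains, each holding a haem group that binds oxygen. Zebrafish, like other vertebrates, make embryonic chains in the first, primitive red cells and switch to adult chains as definitive red cells replace them. The anion exchanger, also called band 3, swaps chloride for bicarbonate across the red cell membrane and anchors the membrane skeleton, and zebrafish that lack it are anaemic. Cytoglobin binds oxygen too but is not a haemoglobin chain, and in mammals it is found in fibroblasts and related cells of many tissues. Whether a fin holds less of a red cell transcript because it holds fewer red cells or because each cell holds less of it cannot be told apart in pooled tissue.

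In the RefSeq annotation of the assembly GRCz12tu, hbbe2 and hbbe3 lie on chromosome 12 with 2 annotated genes between them, and the embryonic alpha gene hbae5 is the next gene after hbbe2. Gene hbae3 lies on chromosome 3, with 7 genes between it and the adult beta gene hbba1 and 8 between it and the adult alpha gene hbaa1. Genes slc4a1a and cygb1 are on chromosome 3 as well, 425 annotated genes apart from each other.

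The deposited value of a probe set is a linear ratio to a reference of its own, so values can be compared between arrays of 1 probe set but not between genes. The 4 red cell genes were high in larval unamputated fin, and by 2 dpa all 4 were low. At 1 dpa they had not moved alike: hbbe3 was already low, slc4a1a was near its unamputated level, and hbbe2 and hbae3 were at their highest. Cytoglobin was lowest in larval unamputated fin and higher on every later larval day, as hbbe2 and hbae3 were at 1 dpa alone. Its highest values were in the adult regenerate, where the embryonic globins were near the bottom of their range.

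**Figure D1:**
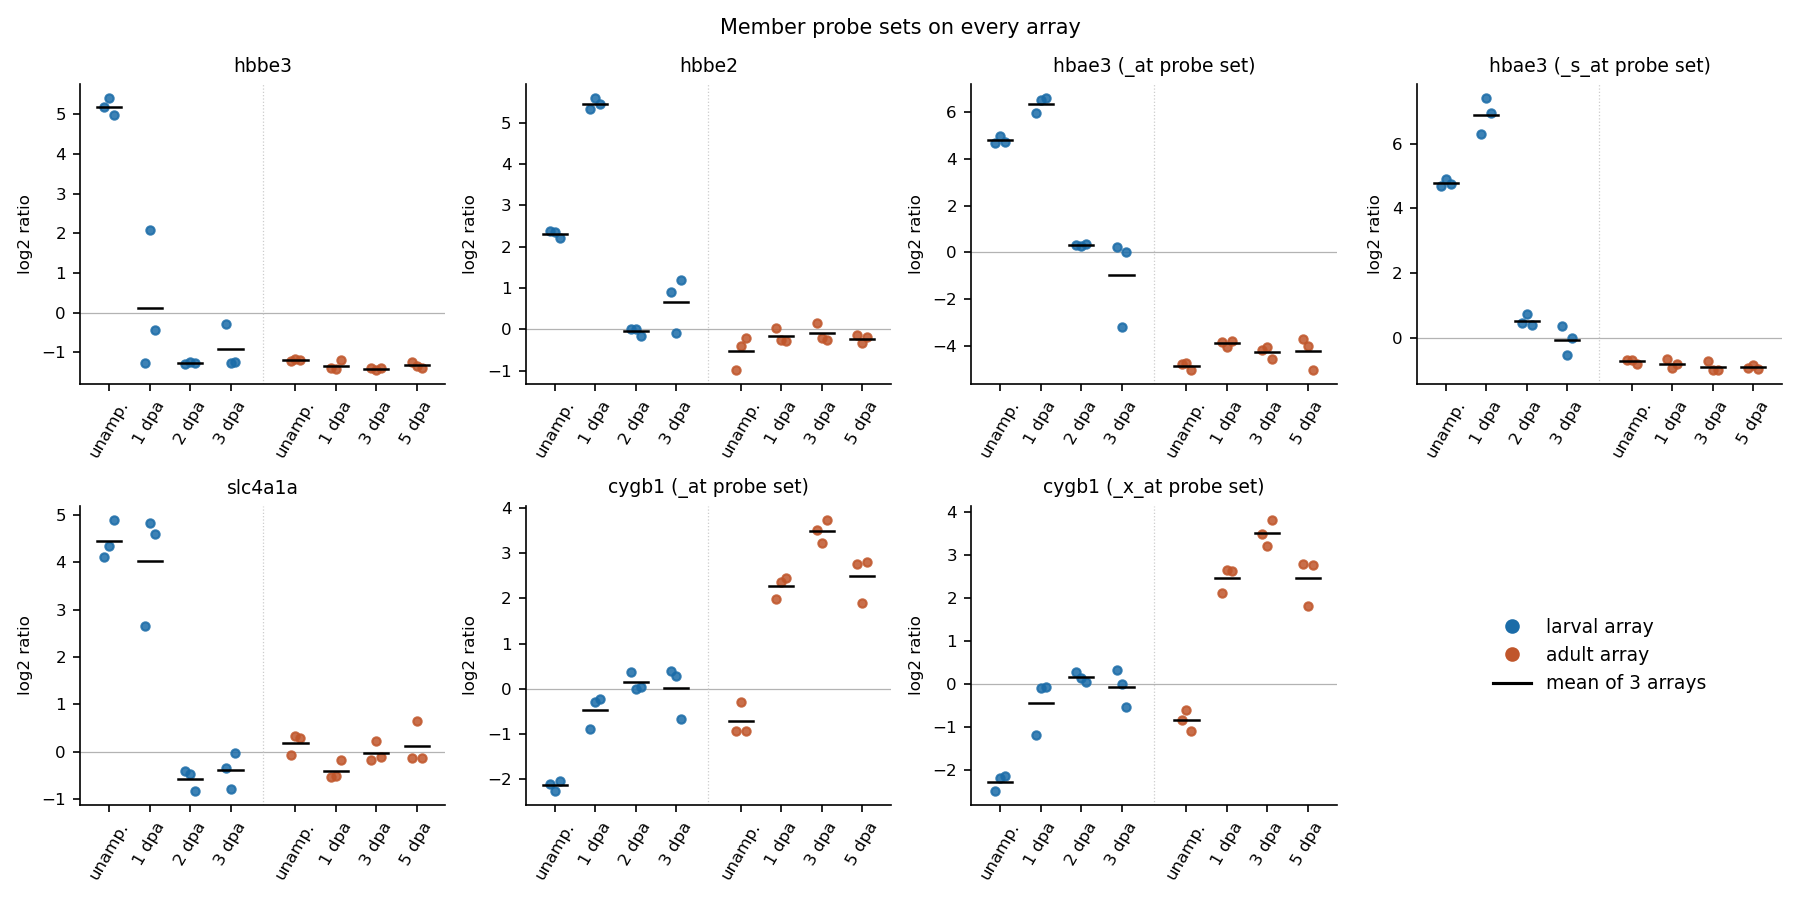
Log2 ratio (vertical axis, a scale of its own in each panel) of the 7 probe sets of hbbe3, hbbe2, hbae3, slc4a1a and cygb1 on each array of the 8 groups (horizontal axis; unamp., unamputated; dpa, days post amputation). Points are arrays and lines are means of 3; the red cell genes are high in no arrays but larval unamputated and 1 dpa ones, and cygb1 is highest in adult 3 dpa arrays.

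The embryonic beta chain gene hbbe3 was the one member that was already low at 1 dpa. Its ratios were 36.5, 42.4 and 31.4 in larval unamputated fin. At 1 dpa they were 0.411, 4.24 and 0.736. At 2 dpa they were 0.408, 0.422 and 0.413, and at 3 dpa 0.82, 0.417 and 0.424. Every unamputated array was thus far above every later larval array, and the 1 dpa arrays were spread widely, with replicate 2 above the others. The log2 difference from unamputated fin was -5.07 ± 0.65 (model SE, 3 arrays a group) at 1 dpa, -6.46 ± 0.65 at 2 dpa and -6.12 ± 0.65 at 3 dpa. Without replicate 2 of the 1 dpa arrays the first of these was -6.05, and without replicate 1 it was -4.37.

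In adult fin the probe set for hbbe3 varied little. The lowest, median and highest ratios over the 12 adult arrays were 0.367, 0.386 and 0.442. Within that range the 3 and 5 dpa arrays lay below unamputated fin without overlap, at log2 differences of -0.21 ± 0.09 and -0.13 ± 0.09. Of all 24 arrays, 16 lay within 0.25 on the log2 scale of the lowest one, with ratios from 0.367 to 0.433, made up of 6 of the 12 larval and 10 of the 12 adult arrays. From highest to lowest group mean, larval unamputated fin did not overlap larval 1 dpa, which overlapped larval 3 dpa, and larval 2 dpa overlapped adult 5 dpa.

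The other embryonic beta chain gene, hbbe2, had its highest values 1 day after amputation. Its ratios were 5.18, 5.11 and 4.64 in larval unamputated fin and 40.1, 48.3 and 43.4 at 1 dpa. At 2 dpa they were 0.997, 1.0 and 0.9, and at 3 dpa 1.88, 0.933 and 2.27. The 1 dpa arrays did not overlap any other larval group, and the unamputated arrays were above those of 2 and 3 dpa, which overlapped each other. The log2 difference from unamputated fin was 3.14 ± 0.26 at 1 dpa, an 8.81-fold higher level; with quantile normalization of the 24 arrays it was 2.16. It was -2.37 ± 0.26 at 2 dpa and -1.65 ± 0.26 at 3 dpa. Between 1 and 2 dpa the mean log2 ratio went from 5.45 to -0.05.

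At 1 dpa the chromosome 12 genes hbbe2 and hbbe3 therefore differed from unamputated fin in opposite directions, on each of the 3 arrays. In adults hbbe2 lay between 0.506 and 1.12, with a median of 0.854, and the groups overlapped at every day. Its adult differences from unamputated fin were 0.37 ± 0.20, 0.43 ± 0.20 and 0.31 ± 0.20 at 1, 3 and 5 dpa.

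The embryonic alpha chain gene hbae3 was also highest at larval 1 dpa. Its first probe set, whose name ends in _at, gave ratios of 26.0, 31.2 and 26.3 in larval unamputated fin and 63.3, 92.8 and 97.6 at 1 dpa. At 2 dpa the ratios were 1.24, 1.2 and 1.29. At 3 dpa they were 1.18, 0.11 and 1.0, with replicate 2 well under the other arrays. All 4 larval groups were free of overlap with one another.

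The second hbae3 probe set ends in _s_at, a suffix that marks probes able to match several transcripts of a family. Its ratios were 25.9, 30.0 and 26.8 in larval unamputated fin, and 78.0, 169 and 122 at 1 dpa. They were 1.4, 1.68 and 1.32 at 2 dpa and 1.29, 0.7 and 1.0 at 3 dpa. The order of the larval groups was the same as for the first probe set.

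The log2 difference of hbae3 from unamputated fin at 1 dpa was 1.58 ± 0.68 by the _at probe set and 2.09 ± 0.27 by the _s_at probe set, or 0.97 and 1.57 with quantile normalization. At 2 dpa the differences were -4.48 ± 0.68 and -4.24 ± 0.27, and at 3 dpa -5.78 ± 0.68 and -4.83 ± 0.27. Without replicate 2 of the 3 dpa arrays, the _at value at 3 dpa was -4.67. Both probe sets put the largest step between 1 and 2 dpa, at -6.06 and -6.33.

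In adult fin the hbae3 probe sets gave different values. The _at ratio ran from 0.0304 to 0.0765 with a median of 0.0573, and the _s_at ratio from 0.509 to 0.644 with a median of 0.576. The log2 gap between the probe sets, _at minus _s_at, had a median of -0.15 over the 12 larval arrays and of -3.36 over the 12 adult arrays. Larval unamputated fin was accordingly 9.65 above adult unamputated fin on the log2 scale by one probe set and 5.49 by the other. The adult differences of the _at probe set from unamputated fin were 0.96 ± 0.29, 0.58 ± 0.29 and 0.61 ± 0.29 at 1, 3 and 5 dpa, with overlap at 5 dpa alone. These ratios were all far under 0.538, the 10th percentile of all values. Raising low values to it therefore made the differences 0.00 by construction, which is no check. With quantile normalization the differences at 3 and 5 dpa were 0.10 and 0.06. By the _s_at probe set the adult differences were -0.07 ± 0.11, -0.17 ± 0.11 and -0.19 ± 0.11, so the sign differed from that of the _at probe set. Its arrays overlapped unamputated fin at 1 and 3 dpa and not at 5 dpa.

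The anion exchanger gene slc4a1a was high in larval unamputated fin and at 1 dpa. Its ratios were 17.3, 20.2 and 29.8 in unamputated fin and 6.25, 28.3 and 24.3 at 1 dpa. They were 0.758, 0.727 and 0.561 at 2 dpa and 0.792, 0.582 and 0.977 at 3 dpa. The first pair of groups overlapped, as did the second, while every array of the first pair was above every array of the second.

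The log2 difference of slc4a1a from unamputated fin was -0.42 ± 0.47 at larval 1 dpa, -5.01 ± 0.47 at 2 dpa and -4.83 ± 0.47 at 3 dpa. The value at 1 dpa depended on replicate 1 and was 0.27 without that array. That array was the lowest of its group for all 7 member probe sets, cytoglobin included.

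In adult fin slc4a1a lay between 0.694 and 1.56. Its ratios were 0.961, 1.26 and 1.22 in unamputated fin and 0.694, 0.708 and 0.889 at 1 dpa. These groups did not overlap, with a log2 difference of -0.58 ± 0.22. At 3 and 5 dpa the differences were -0.20 ± 0.22 and -0.06 ± 0.22, and the groups overlapped unamputated fin. Larval unamputated fin exceeded adult unamputated fin by 4.26 on the log2 scale. The adult groups and the larval 2 and 3 dpa groups formed one run, from a mean log2 ratio of 0.18 down to -0.56, in which each neighbour overlapped the next.

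Cytoglobin was lowest in larval unamputated fin. By its _at probe set the cygb1 ratios there were 0.232, 0.207 and 0.244. They were 0.537, 0.821 and 0.858 at 1 dpa, 1.3, 1.0 and 1.03 at 2 dpa, and 1.32, 1.22 and 0.633 at 3 dpa. Every amputated larval array was above every unamputated one, and the 3 dpa arrays overlapped both earlier days. The log2 differences of cygb1 from unamputated fin were 1.67 ± 0.27, 2.28 ± 0.27 and 2.15 ± 0.27 at 1, 2 and 3 dpa. The unamputated arrays lay below the 10th percentile of all deposited values, a ratio of 0.538, and raising low values to it cut these differences to 0.43, 1.04 and 0.91.

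In adults cygb1 had ratios of 0.522, 0.821 and 0.523 in unamputated fin. At 1 dpa they were 3.96, 5.11 and 5.5. At 3 dpa they were 11.5, 9.41 and 13.4, the highest of all 8 groups, and at 5 dpa 6.76, 3.74 and 6.96. All 9 regenerating arrays were above all 3 unamputated arrays, and the 3 dpa arrays were above those of 1 and 5 dpa, which overlapped each other. The log2 differences from unamputated fin were 2.99 ± 0.27 at 1 dpa, 4.22 ± 0.27 at 3 dpa and 3.21 ± 0.27 at 5 dpa, which are 7.92-, 18.7- and 9.23-fold higher levels. With quantile normalization these differences were 2.42, 3.57 and 2.64.

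The second cygb1 probe set, whose suffix _x_at marks probes that may cross-hybridise, gave much the same values. Its log2 differences from unamputated fin were 1.82 ± 0.29, 2.42 ± 0.29 and 2.19 ± 0.29 at 1, 2 and 3 dpa in larvae. In adults they were 3.30 ± 0.28, 4.34 ± 0.28 and 3.31 ± 0.28 at 1, 3 and 5 dpa. Over the 24 arrays the cygb1 probe sets were never more than 0.39 apart on the log2 scale.

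**Figure D2:**
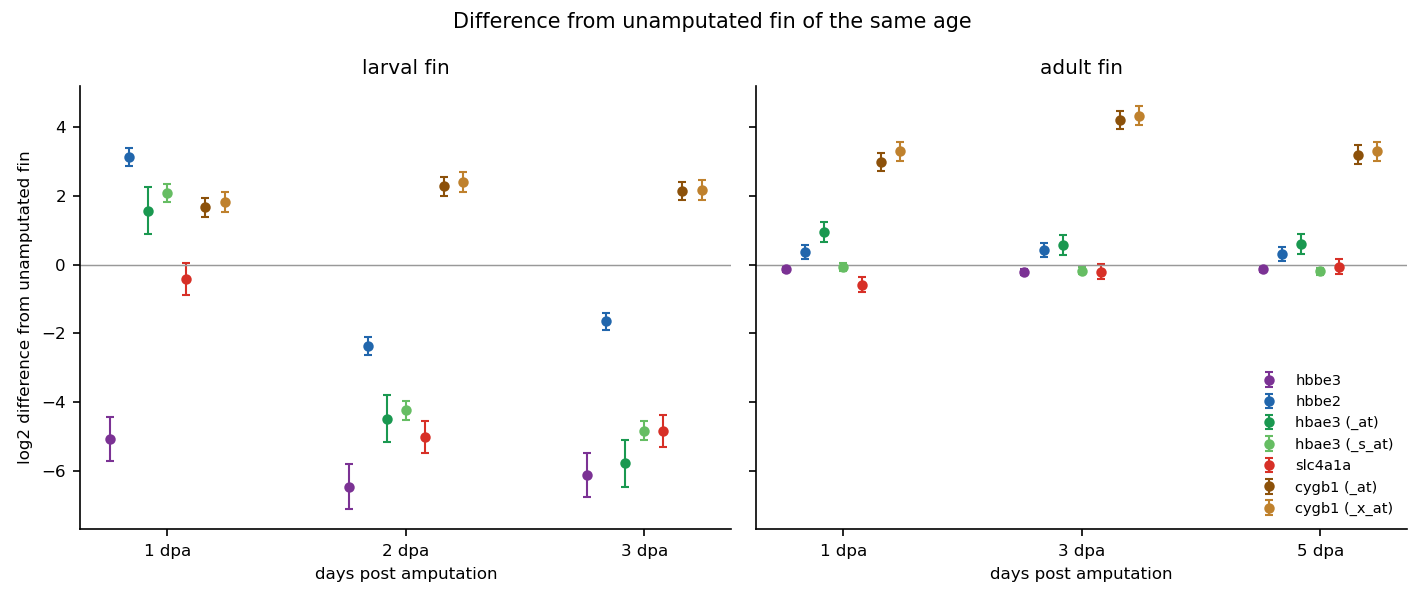
Log2 difference from unamputated fin of the same age (vertical axis) for the 7 member probe sets at each day post amputation (horizontal axis), larval fin at left and adult fin at right. Bars are model standard errors; cygb1 lies above 0 at every day in both ages, and hbbe3, hbbe2, hbae3 and slc4a1a lie below 0 at larval 2 and 3 dpa.

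These member differences stood on contrasts in which many probe sets differed, and since they chose the genes nothing is read from their number. All 7 member probe sets except that of slc4a1a were free of overlap with unamputated fin at larval 1 dpa. A probe set was called when limma gave a Benjamini-Hochberg adjusted p under 0.05 over all 15502 probe sets and a change of at least 2-fold. By this rule 2.43% of probe sets were called higher and 1.58% lower at larval 1 dpa. At 2 dpa 6.23% were called higher and 6.32% lower, and at 3 dpa 5.08% higher and 5.51% lower. All 7 member probe sets were free of overlap with unamputated fin at 2 and 3 dpa. A call is a different measure from lack of overlap. The share of all probe sets free of overlap is not given here, so the called shares are no yardstick for it. The median log2 difference over all probe sets was -0.03, -0.02 and 0.00 at larval 1, 2 and 3 dpa.

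In adults the calls were 8.68% higher and 7.4% lower at 1 dpa, 8.1% higher and 6.19% lower at 3 dpa, and 7.01% higher and 4.46% lower at 5 dpa. The median over all adult probe sets was -0.17 at 1 dpa, -0.18 at 3 dpa and -0.17 at 5 dpa, so hbbe3, at -0.13, -0.21 and -0.13, was close to this median. The value of -0.58 for slc4a1a at 1 dpa was read against the same shift.

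Other haemoglobin probe sets were looked at beside the members. Those annotated to several globin genes name no single gene. A probe set annotated to several embryonic beta chain genes had ratios of 62.1, 83.0 and 59.6 in larval unamputated fin and 143, 291 and 254 at 1 dpa. At 2 dpa it had 2.22, 2.05 and 1.79, at 3 dpa 1.44, 0.123 and 1.0, and in adults 0.0591 to 0.11. It was highest at 1 dpa, as hbbe2 and hbae3 were and hbbe3 was not. The low array at 3 dpa was replicate 2, as for the _at probe set of hbae3.

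Both probe sets annotated to several embryonic alpha chain genes were also highest at larval 1 dpa. The _s_at one had 37.5, 42.1 and 31.9 in unamputated fin and 55.1, 121 and 56.6 at 1 dpa. It had 1.08 to 1.62 at 2 dpa, 0.719 to 1.14 at 3 dpa, and 0.23 to 0.278 in adults. The _at one had 4.44, 7.46 and 7.15 in unamputated fin and 14.7, 13.1 and 21.2 at 1 dpa, and stayed at or under 1.91 in every later or adult array. Its adult ratios were 0.732 to 0.927 in unamputated fin. They were lower, without overlap, at 1 dpa (0.365 to 0.427), 3 dpa (0.352 to 0.493) and 5 dpa (0.434 to 0.55), mostly under the 10th percentile of 0.538. Of the embryonic chain probe sets, the one for hbbe3 alone was low at larval 1 dpa.

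Adult chains were confined, above a ratio of 1.2, to adult fin. The adult alpha chain gene hbaa1 had larval ratios from 0.624 to 0.986. In adults it had 95.2, 187 and 261 in unamputated fin, 192, 131 and 310 at 1 dpa, 333, 268 and 171 at 3 dpa and 377, 379 and 431 at 5 dpa. The adult beta chain gene hbba2 had 0.58 to 1.2 in larvae and 1.74 to 16.2 in adults.

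The 5 dpa arrays held the highest hbaa1 values of the series. The hbaa1 log2 difference from unamputated fin was 0.25 ± 0.40 at 1 dpa (adjusted p = 0.63, limma), 0.57 ± 0.40 at 3 dpa (adjusted p = 0.27) and 1.24 ± 0.40 at 5 dpa (adjusted p = 0.038). The call at 5 dpa did not last when an array was left out: it was lost without adult 5 dpa replicate a (adjusted p = 0.078), b (0.075) or c (0.099), and without unamputated replicate 1 (0.12) or 2 (0.071). For hbba2 the difference at 5 dpa was 1.28 ± 0.79 (adjusted p = 0.22, limma). A probe set annotated to several adult beta chain genes went from 52.4, 107 and 115 in adult unamputated fin to 318, 375 and 323 at 5 dpa, beside 0.633 to 1.0 in larvae.

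**Figure D3:**
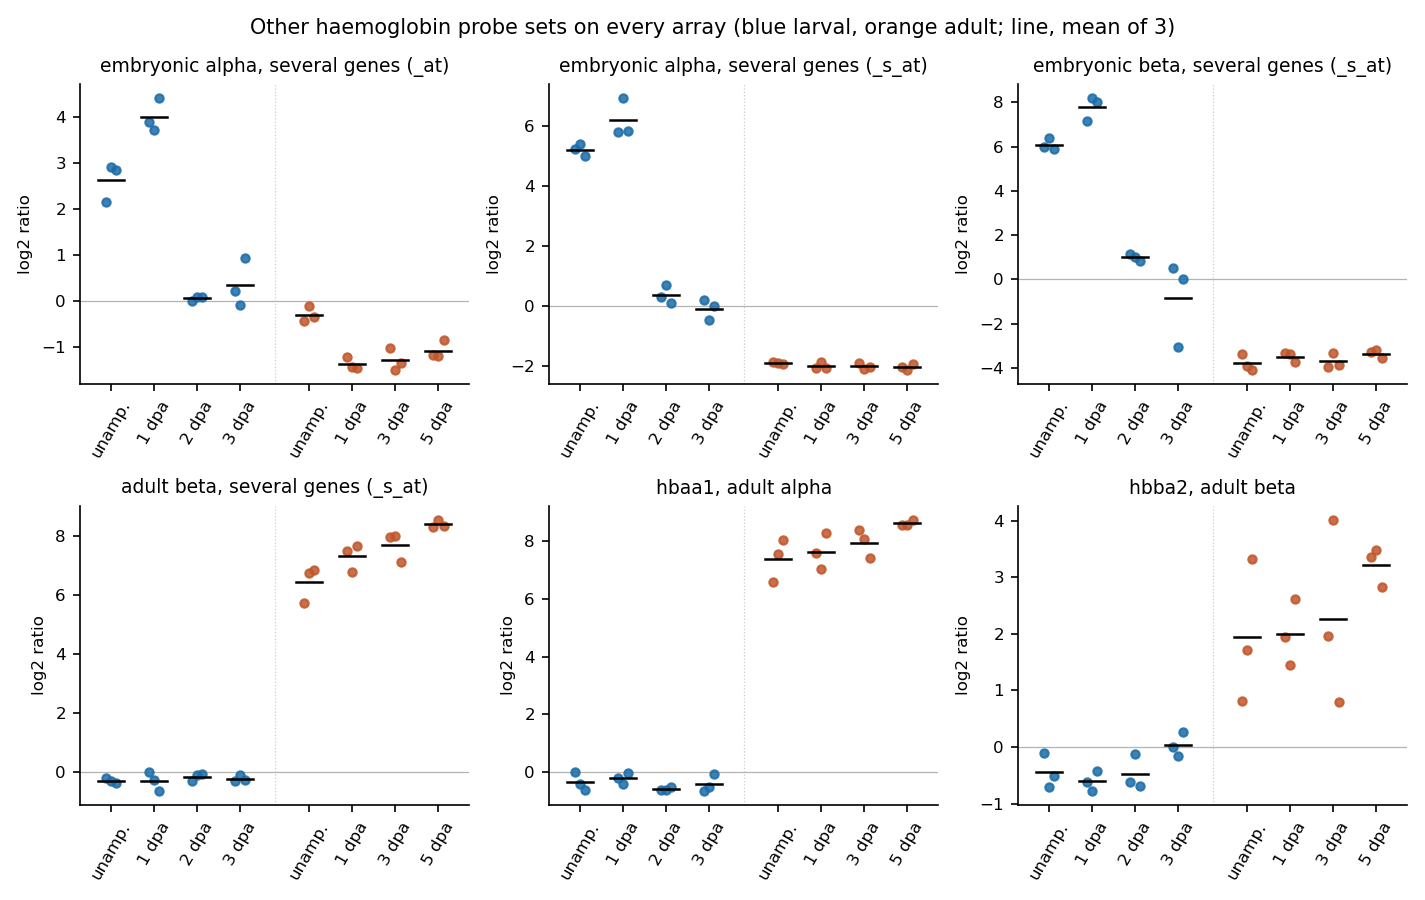
Log2 ratio (vertical axis, a scale of its own in each panel) of 4 probe sets annotated to several globin genes and of hbaa1 and hbba2, on each array of the 8 groups (horizontal axis). Points are arrays, blue larval and orange adult, and lines are means of 3; embryonic sets are highest at larval 1 dpa, and the adult sets are high in adult arrays.

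Globins outside the haemoglobins were myoglobin, mb, which stores oxygen in muscle, and neuroglobin, ngb, a globin of neurons. The mb ratios were 0.259, 0.256 and 0.305 in larval unamputated fin, 1.13, 0.245 and 0.224 at 1 dpa, 3.25, 2.94 and 3.98 at 2 dpa and 6.96, 6.75 and 2.3 at 3 dpa. It rose in larvae by 3.63 ± 0.57 at 2 dpa (adjusted p = 6.4e-04, limma) and by 4.13 ± 0.57 at 3 dpa (adjusted p = 3.1e-04), while skeletal muscle markers fell on the same days. In adults mb was not called, at -0.64, -0.49 and 0.23. The ngb ratio stayed between 0.432 and 0.952 in all 24 arrays and was not called in any comparison.

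The rest of the red cell's genes were counted from lists of other globins, membrane proteins, haem synthesis, iron uptake, transcription factors and enzymes, 58 probe sets of 50 genes in all. At larval 1 dpa 2 of the 58 rose and none fell. By 2 dpa 4 had risen and 8 had fallen, and by 3 dpa the counts were 3 and 7. Set against the 6.32% and 5.51% of all probe sets called lower on these days, the lists had 13.8% and 12.1%. Called higher were 6.9% and 5.17% of the lists, near the 6.23% and 5.08% of all probe sets. With 1 array left out the counts lower were 6 to 8 at 2 dpa and 5 to 6 at 3 dpa. The median log2 difference of the lists was 0.00 at 2 dpa and 0.12 at 3 dpa, and 46 of the 58 were not called at 2 dpa. With 0 called lower by limma at 1 dpa, 6 of the 58 were lower there at an unadjusted p under 0.05, and 1 at an adjusted p under 0.05. More were higher there, 14 at an unadjusted and 9 at an adjusted p under 0.05.

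Membrane proteins held the largest share. Of 6 membrane probe sets, 1 rose at larval 1 dpa and 4 fell at both 2 and 3 dpa, with a list median of -1.64 and -1.45. The water channel gene aqp1a.1 had ratios of 43.7, 46.4 and 53.7 in larval unamputated fin, 30.0, 45.7 and 45.7 at 1 dpa, 1.29, 1.0 and 1.39 at 2 dpa and 1.96, 0.46 and 1.0 at 3 dpa. It fell by 5.30 ± 0.40 on the log2 scale at 2 dpa (adjusted p = 6.0e-06, limma) and fell by 5.63 ± 0.40 at 3 dpa (adjusted p = 4.4e-06), in the same step as slc4a1a. Aquaporin 1 is also found in endothelium.

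The beta spectrin gene sptb, which codes for a main strand of the red cell membrane skeleton, fell by 1.77 ± 0.21 at 2 dpa (adjusted p = 1.1e-04, limma) and fell by 1.82 ± 0.21 at 3 dpa (adjusted p = 1.0e-04); it was named after its values were seen. Protein 4.1, epb41b, which ties spectrin to actin, fell by 1.52 ± 0.25 at 2 dpa (adjusted p = 9.2e-04, limma) and fell by 1.09 ± 0.25 at 3 dpa (adjusted p = 0.0076). At 3 dpa the epb41b difference was under 2-fold, and no longer called, without replicate 3 of that day (-0.98) or without unamputated replicate 1 (-0.93). The remaining member of the list that fell, tmod4, at -3.36 ± 0.38 and -3.60 ± 0.38 (adjusted p = 6.9e-05 and 5.1e-05, limma), is a tropomodulin known from skeletal muscle. Dematin, dmtn, which bundles actin, rose by 1.09 ± 0.19 at 1 dpa (adjusted p = 0.004, limma), a call lost without replicate 2 of that day (0.95).

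Among enzymes, cahz, a carbonic anhydrase of zebrafish red cells, fell by 1.93 ± 0.26 at larval 2 dpa (adjusted p = 2.2e-04, limma) and fell by 2.69 ± 0.26 at 3 dpa (adjusted p = 2.7e-05). Its ratios were 4.76, 5.4 and 5.86 in unamputated fin and 5.67, 11.0 and 8.06 at 1 dpa, a difference of 0.58 ± 0.26 that was not called. The ubiquitin-conjugating enzyme gene ube2h rose on all 3 larval days, by 1.18 ± 0.18, 1.83 ± 0.18 and 1.65 ± 0.18 (adjusted p = 0.0021, 3.2e-05 and 7.6e-05, limma). With ratios under 0.538 raised to it, the ube2h differences were 0.34, 0.97 and 0.78 and none was called. By construction this raised every unamputated value of ube2h, and a ratio carries no absolute level. The gene bnip3lb, related to a mammalian gene that clears mitochondria from maturing red cells, rose by 1.02 ± 0.14 at 2 dpa by 1 of its 2 probe sets (adjusted p = 2.3e-04, limma), which was under 2-fold without replicate 1 of that day (0.99) or unamputated replicate 1 (0.94). The other bnip3lb probe set was at -0.01 ± 0.14 (adjusted p = 0.96, limma). The mitochondrial carrier gene ucp3 rose by 1.33 ± 0.33 at 3 dpa (adjusted p = 0.011, limma) and was at 0.92 without replicate 1 of that day; with all 24 arrays in 1 fit it was not called (adjusted p = 0.12).

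The gene alas2, for the first enzyme of haem synthesis in red cells, was the one of 13 haem and mitochondrial iron probe sets that fell in larvae. It fell by 1.18 ± 0.34 at 2 dpa (adjusted p = 0.022, limma) and fell by 1.02 ± 0.34 at 3 dpa (adjusted p = 0.046). Its ratios of 1.46, 2.28 and 1.46 in unamputated fin stood beside 2.34, 6.65 and 2.7 at 1 dpa, 1.04 ± 0.34 above (adjusted p = 0.07). The call at 2 dpa was lost without unamputated replicate 2 (adjusted p = 0.089) or without 2 dpa replicate 1 (0.069) or 2 (0.072). The call at 3 dpa was lost without any 1 of the 6 arrays compared, with adjusted p from 0.069 to 0.17, and with arrays centred (0.053) or low values raised (0.067).

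Of 12 probe sets for red cell transcription factors, their cofactors and a signalling kinase, 2 fell at larval 2 dpa and 1 at 3 dpa. Named after their values were seen, these were klf1, which drives globin and membrane genes in red cells, at -1.04 ± 0.32 (adjusted p = 0.029, limma) at 2 dpa, and lmo2, a cofactor of blood and vessel precursors, at -1.17 ± 0.20 (adjusted p = 9.8e-04) and -1.09 ± 0.20 (adjusted p = 0.0018). The klf1 call was lost without unamputated replicate 2 (-0.68, adjusted p = 0.11) or 3 (0.06) or without 2 dpa replicate 1 (0.09), 2 (0.072) or 3 (0.052). Without unamputated replicate 3, lmo2 was under 2-fold on both days (-0.90 and -0.82). The master regulator gata1a had ratios between 0.634 and 1.11 in all 24 arrays and was called in no comparison. Its larval differences were 0.18, -0.11 and -0.01. Of the 3 iron uptake probe sets 0 were called in larvae by limma, with 2, 1 and 1 higher at an unadjusted p under 0.05 at 1, 2 and 3 dpa, and 1 on each day at an adjusted p under 0.05.

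**Figure D4:**
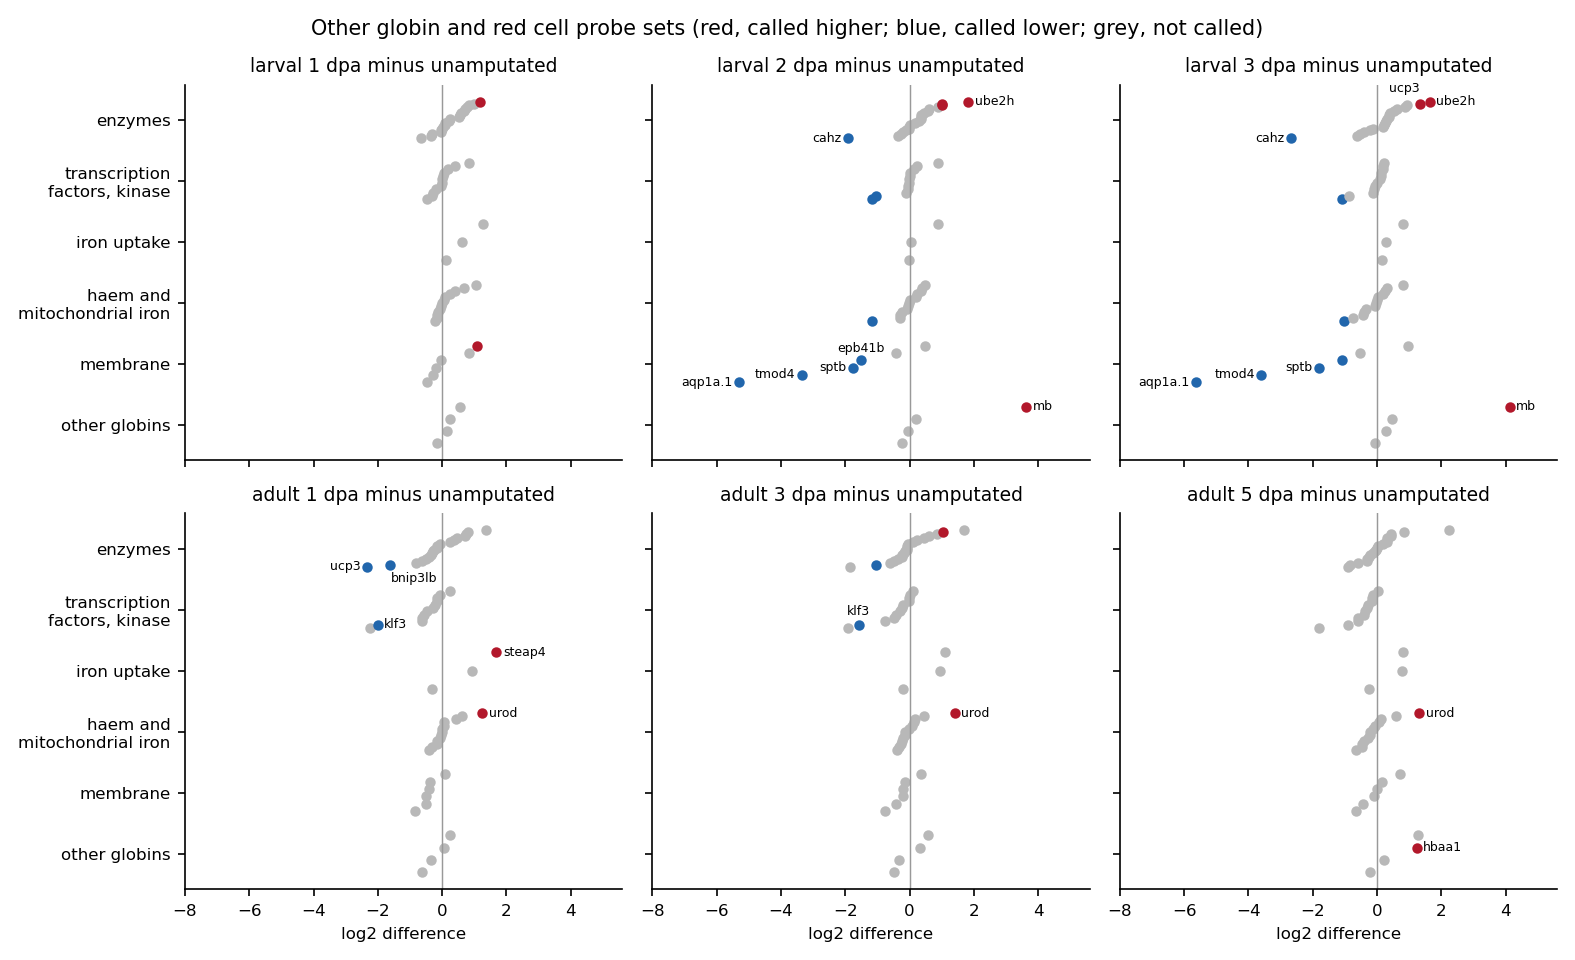
Log2 difference from unamputated fin (horizontal axis) of the 58 other globin and red cell probe sets, by list (vertical axis), in the 6 comparisons with unamputated fin. Each point is a probe set, red where called higher, blue where called lower and grey where not called, with the larger called ones named; 4 of the 6 membrane probe sets are called lower at larval 2 and 3 dpa and 0 in adults.

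In adult fin few of the 58 were called. At 1 dpa 2 rose while 3 fell. The counts were 2 and 2 at 3 dpa. They were 2 and 0 at 5 dpa. There by limma 10 were lower and 7 higher at an unadjusted p under 0.05. At an adjusted p under 0.05, 7 were lower, by less than 2-fold, and 5 were higher. When the 6 arrays of these groups, or all 24, were fitted, 1 was called lower. The called counts were all below the share of all probe sets called on the same day. At an adjusted p under 0.05 by limma with no minimum fold, 6 were higher and 11 lower at 1 dpa. At 3 dpa 5 were higher and 7 lower. Of the 6 membrane probe sets 0 were called on any adult day by limma, while 2, 1 and 1 were lower at 1, 3 and 5 dpa at an unadjusted and also at an adjusted p under 0.05, by less than 2-fold. At 5 dpa 1 was higher at these thresholds, also by less than 2-fold. Named after its values were seen, the ankyrin gene ank1a was the one lower on all 3 days, at -0.84 ± 0.09, -0.78 ± 0.09 and -0.65 ± 0.09 (adjusted p = 2.6e-04, 3.8e-04 and 0.0013, limma). Uroporphyrinogen decarboxylase, urod, an enzyme midway through haem synthesis, rose on all 3 days, by 1.25 ± 0.34, 1.41 ± 0.34 and 1.32 ± 0.34 (adjusted p = 0.014, 0.0087 and 0.016, limma). The other 12 of the 13 haem and mitochondrial iron probe sets were not called, and the list medians were 0.00, -0.13 and -0.22. At an adjusted p under 0.05 by limma with no minimum fold, 1, 0 and 3 of the list were lower and 1 was higher on each day. The urod call was lost at 1 dpa without replicate e or without unamputated replicate 1 (adjusted p = 0.052 for each) and at 5 dpa without replicate c (0.058) or unamputated replicate 1 (0.054). The other haem enzyme followed, alas2, was at 0.05, 0.09 and 0.58 and was not called.

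The metalloreductase gene steap4, of the iron uptake list, rose at adult 1 dpa by 1.69 ± 0.50 by 1 of its 2 probe sets (adjusted p = 0.021, limma), a call lost without replicate b of that day (adjusted p = 0.061) or unamputated replicate 1 (0.054) or 2 (0.078). The other steap4 probe set was at 0.93 ± 0.24 (adjusted p = 0.011, limma), under 2-fold. Catalase, cat, rose at 3 dpa by 1.05 ± 0.25 (adjusted p = 0.0087, limma), and was under 2-fold without replicate b (0.81) or unamputated replicate 1 (0.84). The Krüppel-like factor gene klf3 fell by 2.01 ± 0.38 at 1 dpa (adjusted p = 0.0024, limma) and fell by 1.58 ± 0.38 at 3 dpa (adjusted p = 0.0081). Another gene of that list, klf17, named after its values were seen, was not called on any adult day. Its ratios were 20.2, 13.1 and 13.7 in unamputated fin and 10.4, 0.612 and 5.46 at 1 dpa. They were 3.37, 7.54 and 2.62 at 3 dpa and 3.71, 7.75 and 2.86 at 5 dpa. The same bnip3lb probe set fell by 1.61 ± 0.23 at 1 dpa (adjusted p = 7.5e-04, limma) and fell by 1.03 ± 0.23 at 3 dpa (adjusted p = 0.0063), the latter under 2-fold without replicate b (-0.94) or unamputated replicate 3 (-0.99), with arrays centred (-0.89) and after quantile normalization (-0.67). The other bnip3lb probe set was at -0.80 ± 0.94 and -0.61 ± 0.94 (adjusted p = 0.5 and 0.62, limma). The gene ucp3 fell by 2.33 ± 0.73 at 1 dpa (adjusted p = 0.026, limma), a call lost without replicate e (adjusted p = 0.092) or unamputated replicate 1 (0.066) or 3 (0.073).

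The adult change was set against the larval change at 1 and 3 dpa, the days measured in both ages. For the members these are descriptions. For hbbe3 the adult minus larval difference of changes was 4.94 ± 0.70 at 1 dpa and 5.90 ± 0.70 at 3 dpa, since it was low in adults throughout. For hbbe2 it was -2.77 ± 0.34 at 1 dpa and 2.08 ± 0.34 at 3 dpa, the sign turning with the larval course. For slc4a1a it was -0.16 ± 0.55 and 4.63 ± 0.55, and for cygb1 (_at) 1.32 ± 0.40 and 2.07 ± 0.40.

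For hbae3 the difference of changes at 1 dpa was -0.62 ± 0.79 by the _at probe set and -2.16 ± 0.31 by the _s_at probe set. At 3 dpa it was 6.36 ± 0.79 and 4.66 ± 0.31. Among the other 58 red cell probe sets, 2 were called with a higher adult change and 8 with a lower one at 1 dpa, against 8.92% and 9.01% of all probe sets. At 3 dpa 8 were called higher and 7 lower, against 11.5% and 10.6%. Of the 6 membrane probe sets, 4 were among the 8 called higher at 3 dpa, aqp1a.1 at 5.47 ± 0.49 (adjusted p = 1.5e-07, limma) and epb41b at 1.46 ± 0.32 (adjusted p = 0.0016) among them.

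Markers of other cell types moved on the same days. Of 23 skeletal muscle probe sets, 0 were called lower by limma at larval 1 dpa, with 0 lower at an unadjusted p under 0.05, and 20 fell at both 2 and 3 dpa. The mean log2 ratio of the muscle list on single arrays lay between 3.17 and 5.19 in larval unamputated fin and between 4.39 and 6.05 at 1 dpa. At 2 dpa it was -0.13 to 0.41, and at 3 dpa -0.20 to -0.03. The genes slc4a1a, hbae3, hbbe2 and hbbe3 were all low at 2 and 3 dpa, when muscle markers were low. At 1 dpa, with the muscle list high, hbbe3 was already below unamputated fin, with ratios of 0.411, 4.24 and 0.736. A link between these genes and muscle was not tested. In adults the muscle list varied less, with array means from -0.87 to -0.48.

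Of 7 vascular endothelium probe sets, 1 rose at larval 1 dpa and 2 fell at 2 and 3 dpa. Those that fell were kdrl, a vascular growth factor receptor, at -3.30 ± 0.28 and -3.54 ± 0.28 (adjusted p = 1.2e-05 and 8.2e-06, limma), and plvapb, a protein of endothelial pores, at -3.29 ± 0.24 and -3.33 ± 0.24 (adjusted p = 4.9e-06 and 4.8e-06). Array means of the endothelial list ran from -0.28 to 0.09 in larval unamputated and 1 dpa fin and from -1.24 to -1.09 at 2 and 3 dpa. The median log2 difference of the list was -0.17 at 2 dpa and -0.07 at 3 dpa, with 5 of the 7 not called on each day. The lower array means thus do not stand for the list as a whole. In adults 1, 2 and 3 endothelial probe sets rose at 1, 3 and 5 dpa, and 0 were lower by limma even at an unadjusted p under 0.05, on the days on which cygb1 was high.

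Of 6 thrombocyte probe sets, 2 fell at larval 2 dpa and 1 at 3 dpa, and 1 rose at adult 5 dpa. Array means of the thrombocyte list ran from -0.46 to 0.00 in larval unamputated and 1 dpa fin and from -0.77 to -0.46 at 2 and 3 dpa. Of 16 myeloid probe sets, 7 rose and 1 fell at larval 1 dpa, where hbbe2 and hbae3 were highest. Higher myeloid calls were not particular to that day. When these globins were low, 4 were called higher (2 dpa) and then 3 (3 dpa), each time beside 1 called lower. The myeloid median log2 difference was 0.79 at 1 dpa, 0.79 at 2 dpa and 0.57 at 3 dpa. Array means ran from -0.62 to -0.23 in unamputated fin and from -0.29 to 0.54 at 1 dpa. Later they ran from -0.15 to 0.09 (2 dpa) and from -0.55 to 0.08 (3 dpa). No marker of these lists was listed at 0 on any array, but a ratio carries no absolute level, so this does not show that a marker was detected. The part of these cell types in the values of the members was not tested. The vehicle cannot be told apart from the day in larvae, where DMSO is named at 2 and 3 dpa alone. In adults liposomes are named for every regenerate and not for unamputated fin, so vehicle and amputation cannot be told apart. Titles of the larval 2 and 3 dpa arrays and of all adult regenerates add the words "adult and larval fin study". The titles of the other groups do not. What this wording stands for is not stated, and it cannot be told apart from vehicle, later larval day or adult amputation. The part of age cannot be told apart either, as given above.

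**Figure D5:**
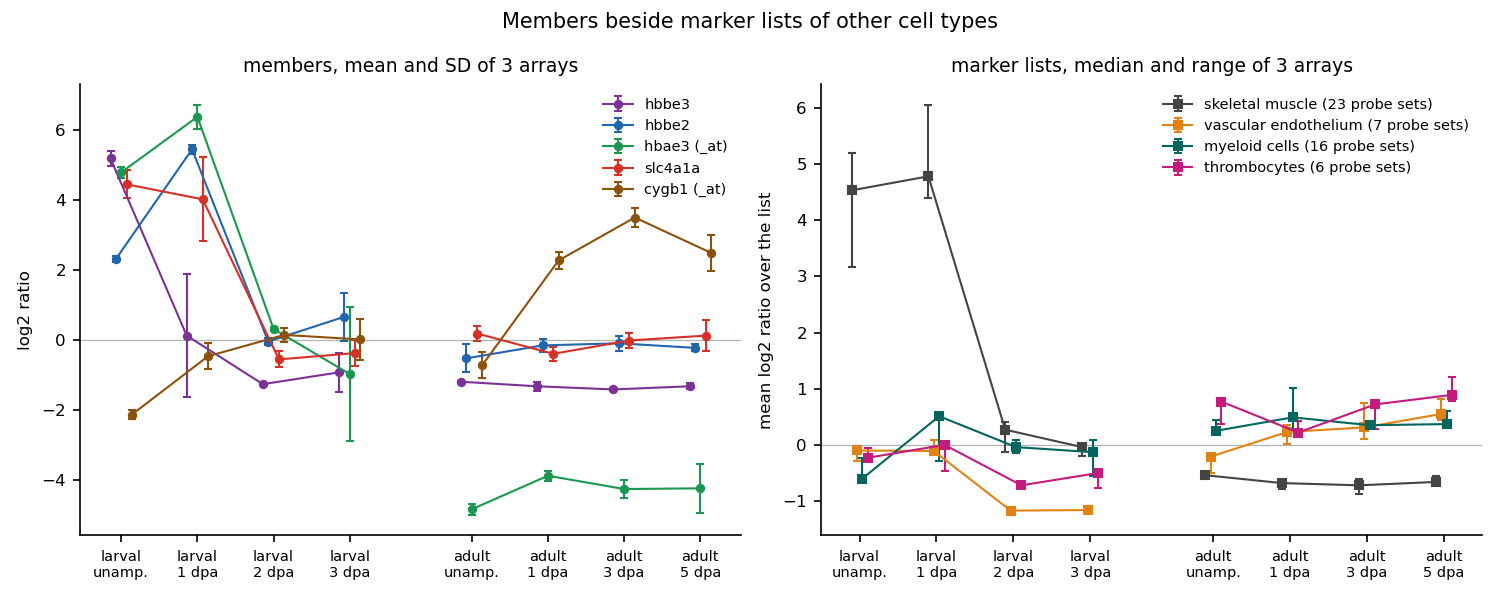
Left, log2 ratio (vertical axis) of 5 member probe sets in the 8 groups, mean and SD of 3 arrays. Right, mean log2 ratio over marker lists of 4 other cell types (vertical axis), median and range of 3 arrays; the muscle list is high in larval unamputated and 1 dpa arrays and low from 2 dpa, and hbbe3 is low from 1 dpa.

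The genes whose pattern was most like that of a member were read from Pearson's r of log2 ratios over the 12 larval arrays, which share their libraries and fall into few groups, so that any gene that steps at the same day scores high. For slc4a1a the highest r was with sptb (0.992), the spectrin gene above, then with cxcl12b (0.990), pmp22b (0.987), cacng1a (0.985) and zgc:66433 (0.984). For hbae3 (_s_at) the highest were the muscle genes myog (0.989) and myh7 (0.989) and the endothelial gene plvapb (0.989), with oc90 (0.988) and nkx3-2 (0.987). By the _at probe set of hbae3 they were tomm40l (0.983), ccn2a (0.981), mrpl12 (0.980), atp6v0cb (0.970) and jag2b (0.969), none of which was among those of the _s_at probe set.

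For hbbe2 the most alike larval genes were evlb (0.981), wnt4b (0.977), slc1a2b (0.975), cep72 (0.974) and fabp7a (0.973). For hbbe3 they were foxd5 (0.979), cldn3d (0.971), lmf2b (0.960), si:ch211-11k18.4 (0.959) and dpydb (0.959). No gene was shared between the hbbe2 and hbbe3 lists. For cygb1 (_at) they were fosl2 (0.983), si:dkey-247k7.2 (0.981), ponzr1 (0.979), cyba (0.977) and junbb (0.975).

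Over the 12 adult arrays cygb1 (_at) was most like marcksb (0.989), tusc3 (0.983), ssr3 (0.974), fzd2 (0.973) and rrbp1b (0.973), and the _x_at probe set of cygb1 shared the first pair, at 0.983 and 0.982. The red cell genes varied little in adults, and their highest r was lower: 0.913 for hbae3 (_at), 0.878 for hbae3 (_s_at), 0.871 for hbbe2 and 0.869 for slc4a1a. For hbbe3 it was 0.952, with zgc:163022, over ratios that differed by less than 0.1.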

How the data were processed

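The values are a linear ratio for each probe set and array, deposited by the authors after GCRMA, per the submitters' processing notes, which give no version; the reference of the ratio and scan dates are not given in the sources used here. Of 15617 probe sets, 9600 hold exactly 1 value of 1 among the 24 arrays and 12198 have 10 to 13 arrays below 1, so a ratio carries no absolute level. The log2 of each ratio was taken, with no further normalization. After 115 control probe sets were set aside, 15502 were tested; 10795 were annotated to 1 gene symbol, 135 to several and 4572 to none, and no gene was named from a probe set with several.

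Linear models were fitted with limma 3.58.1 (R 4.3.3) separately for larval and adult arrays (12 each), and to the 24 together to compare the adult with the larval change, with Benjamini-Hochberg adjustment over all 15502. A call needed an adjusted p under 0.05 and a 2-fold change; "rose" and "fell" refer to calls. The script was tested on simulated data. The number of arrays limits the precision. Named were all member probe sets; for each comparison with unamputated fin up to 3 called risers and 3 called fallers of the red cell lists; every measured other globin, alas2, gata1a, epb41b and cahz; and the 5 probe sets most like each member in each age. Members, lists and rules were chosen with earlier results of these data known.

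Larval replicate numbers, taken from titles, were not used to pair the samples in the main fits. For 9 regenerate arrays set against the unamputated array of the same number, deviations from group means correlated at -0.02 to 0.18. Of these arrays, 5 correlated best with their own number. Such weak correlations cannot settle whether the samples were paired. Alternatives were array centring, quantile normalization, a floor on low values, a replicate block, each array left out, other sets of arrays, no minimum fold, a filter on low ratios and 1 probe set per gene.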

Additional observations from a re-analysis of the deposited data

Results flagged for a closer look

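Some changes after amputation differed between adult and larval fin. For 2 members every larval 3 dpa array was below, and every adult 3 dpa array above, the mean of unamputated fin of its age: hbae3 (_at), with an adult minus larval difference of changes of 6.36 on the log2 scale, and hbbe2, with 2.08. These were chosen on such values and the difference was not tested. The adult change of hbae3 (_at) at 3 dpa, 0.58, was 0.10 with quantile normalization. Raising low values to a ratio of 0.538 made it 0.00 by construction, since every adult array lay under that ratio. By the _s_at probe set of hbae3 the adult change at 3 dpa was -0.17. For hbbe2 the adult 3 dpa arrays overlapped adult unamputated fin. Its adult change of 0.43 was 0.21 without unamputated replicate 1.

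Among the other red cell genes the difference itself was tested with limma on all 24 arrays, with adjusted p over all probe sets. At 1 dpa it was -2.31 for 1 bnip3lb probe set (adjusted p = 1.3e-05), -1.71 for klf3 (0.022), -1.60 for dmtn (0.001), -1.51 for ube2h (6.2e-04), -2.87 for ucp3 (0.014) and 1.3 for urod (0.011). The call for klf3 was lost without adult 1 dpa replicate d (adjusted p = 0.061) or adult unamputated replicate 2 (0.068), and after quantile normalization (0.16). That for ucp3 was lost after quantile normalization (0.054), and that for ube2h with low values raised (-0.68, adjusted p = 0.064). At 3 dpa the difference was -1.89 for the same bnip3lb probe set (3.6e-05), -1.81 for klf3 (0.013), -1.17 for dmtn (0.0069), -1.52 for ube2h (3.3e-04), -3.20 for ucp3 (0.0059), -4.62 for mb (3.1e-05) and 1.81 for urod (7.7e-04). The other bnip3lb probe set was at -0.76 (0.58) and -0.80 (0.53) on these days. At 3 dpa the call for ube2h was lost with low values raised (-0.66, adjusted p = 0.059) and that for klf3 with the 12 arrays of the 4 groups alone (0.057). On the same day the adult change was higher for aqp1a.1 by 5.47 (1.5e-07), for tmod4 by 3.18 (3.4e-05), for cahz by 2.52 (9.2e-04) and for epb41b by 1.46 (0.0016).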

How the results depend on the processing

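No called value changed sign. Of 147 member differences under other settings 110 stayed within 1 SD of the replicates. The replicate block is among these settings and could not move a member difference. Quantile normalization, of the 24 arrays together, moved hbae3 to 0.97 (_at) and 1.57 (_s_at) at larval 1 dpa and to -4.20 and -3.87 at 2 dpa, hbbe2 to 2.16 and -2.74 on these days, cygb1 (_x_at) to 2.61 at larval 2 dpa, and adult cygb1 (_at, _x_at) to 2.42 and 2.66, 3.57 and 3.66, and 2.64 and 2.74 at 1, 3 and 5 dpa. A floor at the 10th percentile, a ratio of 0.538, moved larval cygb1 (_at, _x_at) and hbbe3. The cygb1 differences went to 0.43 and 0.54, 1.04 and 1.05, and 0.91 and 0.83 at 1, 2 and 3 dpa. That of hbbe3 went to -6.09 at 2 dpa. By construction the floor raises the unamputated values of cygb1, its replicate 1 at 1 dpa, and the 2 dpa values of hbbe3.

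Of 130 counts of the other red cell probe sets under other settings, 106 stayed within 1.5 times. Without a minimum fold the counts higher and lower were 9 and 1 at larval 1 dpa, 7 higher at 2 dpa, 9 and 11 at 3 dpa, 6 and 11 at adult 1 dpa, 5 and 7 at 3 dpa, 5 and 7 at 5 dpa, and 14 lower for the difference of changes at 3 dpa. Quantile normalization gave 5 higher at larval 1 dpa, 6 at 3 dpa, and 1 higher and 1 lower at adult 3 dpa. The floor gave 1 higher at larval 1 dpa, 2 at 2 dpa and 1 at adult 3 dpa. Centring gave 4 higher and 1 lower at adult 3 dpa, all 24 arrays in 1 fit 4 lower there and 1 lower at 5 dpa, and the 6 arrays alone 1 lower at 5 dpa. Beside those given above, single genes lost their call as follows: bnip3lb (0.91) at larval 2 dpa, cat (0.99) at adult 3 dpa with the floor, and cat there (0.90) with quantile normalization. The call was gained by alas2 (adjusted p = 0.024) and epb41b (0.034) at larval 1 dpa and dmtn (9.4e-04) and klf3 (0.05) at larval 3 and 2 dpa with quantile normalization, by alas2 at larval 1 dpa (0.047) and ucp3 at adult 3 dpa (0.015) with all 24 arrays, by steap4 at adult 3 dpa (0.039) with 6, and by alas2 in the difference at 3 dpa with centring (0.047) or quantile normalization (0.0088). Named genes lost a call for 45 values and gained one for 13 when 1 array was left out. Without larval 1 dpa replicate 1, calls as higher at that day were gained by 1 steap4 probe set (1.73, adjusted p = 0.012, limma), alas2 (1.33, 0.032) and epb41b (1.14, 0.0041). The cause was not tested. With 1 array left out, counts higher ran from 1 to 5 at larval 1 dpa, 2 to 4 at 2 dpa, 0 to 3 at adult 1 dpa, 1 to 3 at 3 dpa and 0 to 2 at 5 dpa. Counts lower ran from 6 to 8 at larval 2 dpa, 5 to 6 at larval 3 dpa and 1 to 3 at adult 3 dpa. For the difference of changes at 1 dpa they ran from 5 to 10.

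With the larval replicate number as a block the member differences could not change, since each number occurs once in every larval group (hbbe3 at 1 dpa stayed at -5.07). Their unchanged values are therefore no check. The counts of other probe sets that fell could change, and were 8 and 7 at 2 and 3 dpa, as without the replicate block. Of 9 regenerate arrays, 5 correlated best with the unamputated array of their own number. No paired analysis was possible in adults because the regenerate and unamputated arrays share no replicate names.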
